A study of Equus caballus with 25 samples.

Results

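Gene expression of the equine endometrium was compared between day 12 and day 0 of the oestrous cycle. The day 12 biopsies came from what the labels call the late luteal phase, and the day 0 biopsies were taken at ovulation. The members were the 5 arrays titled for day 12 and the 5 titled for day 0, which are 10 of the 25 arrays of the series, and the same replicate number stood for the same mare. All 5 mares were normally cycling Bavarian Warmbloods with no treatment named, sampled through the cervix, and the other 15 arrays came from the same animals at days 3, 8 and 16. The biopsies of a mare were spread over different cycles, although a pair of them could share a cycle, and the labels do not say which. The ages of the mares are not given in the sources used here.

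The endometrium is the lining of the uterus and holds luminal and glandular epithelium, stromal fibroblasts, vessels and immune cells. Around ovulation it has been exposed to oestradiol from the follicle, whereas in the luteal phase the corpus luteum secretes progesterone, which acts through the progesterone receptor and turns the glands to secretion of proteins that nourish an early embryo. The late luteal phase in the mare precedes the time at which endometrial prostaglandin F2 alpha ends the life of the corpus luteum in the absence of a conceptus.

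Each array measured Cy3-labelled RNA on 43603 probes, of which 35769 were bright enough on some day to be tested. The day 12 arrays were brighter than the day 0 arrays. The 75th percentile of the processed signal ran from 698 to 1556 at day 0 and from 1509 to 2168 at day 12, and in log2 terms the paired difference was 0.79 ± 0.38 (SD, n = 5; brighter at day 12 in 5 of 5 mares; exact two-sided sign-flip permutation p = 0.0625, the smallest that 5 pairs allow). Between 70.3% and 79.9% of spots were well above background on the day 0 arrays and between 79.9% and 88.1% on the day 12 arrays. This brightness was divided out before any comparison. All levels below are log2 signals minus the log2 of the 75th percentile of the same array, so that 0 is the 75th percentile, and they cannot be set against each other between genes. What part the brightness had in the results was not tested beyond a fit that held it as a covariate. Only probes with a RefSeq accession could be named, which left 513 tested genes with a symbol. The labelled tissue was checked with the tested markers: the stromal genes DCN and LUM, the epithelial splicing regulator ESRP1 and the equine uterine lipocalin P19 were well above background on all 10 arrays.

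Of the 35769 tested probes, 7806 (21.8%) differed between day 12 and day 0 at an adjusted p under 0.05. In this test limma fitted the day and the mare over all 25 arrays, and p-values were adjusted by Benjamini-Hochberg over all tested probes. Of these probes 4012 were higher at day 12 (11.2% of those tested) and 3794 lower (10.6%). In 7010 of the 7806 probes every mare went the same way. The 5 values of day 12 lay wholly above or below the 5 of day 0 for 5133 of all tested probes (14.4%), and 4615 of these were among those called. The median difference over all tested probes was 0.03. Calls numbered 5005 without mare 5, 5190 without mare 2 and 2739 with the slide added to the model. With array brightness as a covariate 4836 probes were called. Under the normexp background correction, which compresses dim probes, the calls split into 2582 higher and 5660 lower, and its median over all probes was −0.22.

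Among the 513 named genes 156 were called (30.4%), with 61 higher (11.9%) and 95 lower (18.5%), around a median difference of −0.05. Without mare 5, 100 named genes were called. For 109 of the 513 named genes (21.2%) the days did not overlap. In 141 of the 156 all 5 mares moved the same way, and 35 rises and 45 falls were at least 2-fold. The arrays lay on 7 slides, of which only 2 held both days. On one of them, with both biopsies of mare 4, 96.3% of the called probes and 151 of the 156 named genes went in the pooled direction. On the other, which held the day 0 biopsies of mares 2 and 3 and the day 12 biopsy of mare 5, this was so for 97.0% of the probes and again 151 of the named genes. The arrays of both slides had entered the fit that made the calls. High shares were therefore favoured in advance and are not independent of the calls. Genes described below lost their call most often when the slide joined the mare in the model: of the 58 called by the rule for naming genes, 34 passed there. Those that did not were CHGA, HK2, SPI2, CA12, LILRA, H19, MMP9, PLA2G4A, BGN, DCN, MMP26, RARB, SLC2A5, CFTR, SLC16A1, CPT1A, VEGFA, INHA, CD44, SOD1, SAA, TIMP3, IL18 and TLR3. With brightness as a covariate 49 passed, all but SAA, CHGA, LILRA, TIMP3, IL18, TLR3, SLC2A5, SLC16A1 and HSP90AB1. Of other list members given below, HPGD, TGFB1, COL5A2, RSPO3, WNT2, GJB1, CADM1 and CLU did not pass with mare and slide, nor TGFB1, WNT2, GJB1, CADM1 and CLU with brightness. Differences that passed under normexp but were smaller by over 1.5 times included those of CXCL6 (−2.13), COL11A1 (−1.55), CLEC3A (−1.29), LILRA (−1.17), COMP (1.31) and HK2 (1.16). In the account below the difference is always day 12 minus day 0 on the log2 scale, given with its moderated standard error (SE). Adjusted p-values are those of the limma fit over all probes.

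**Figure D1:**
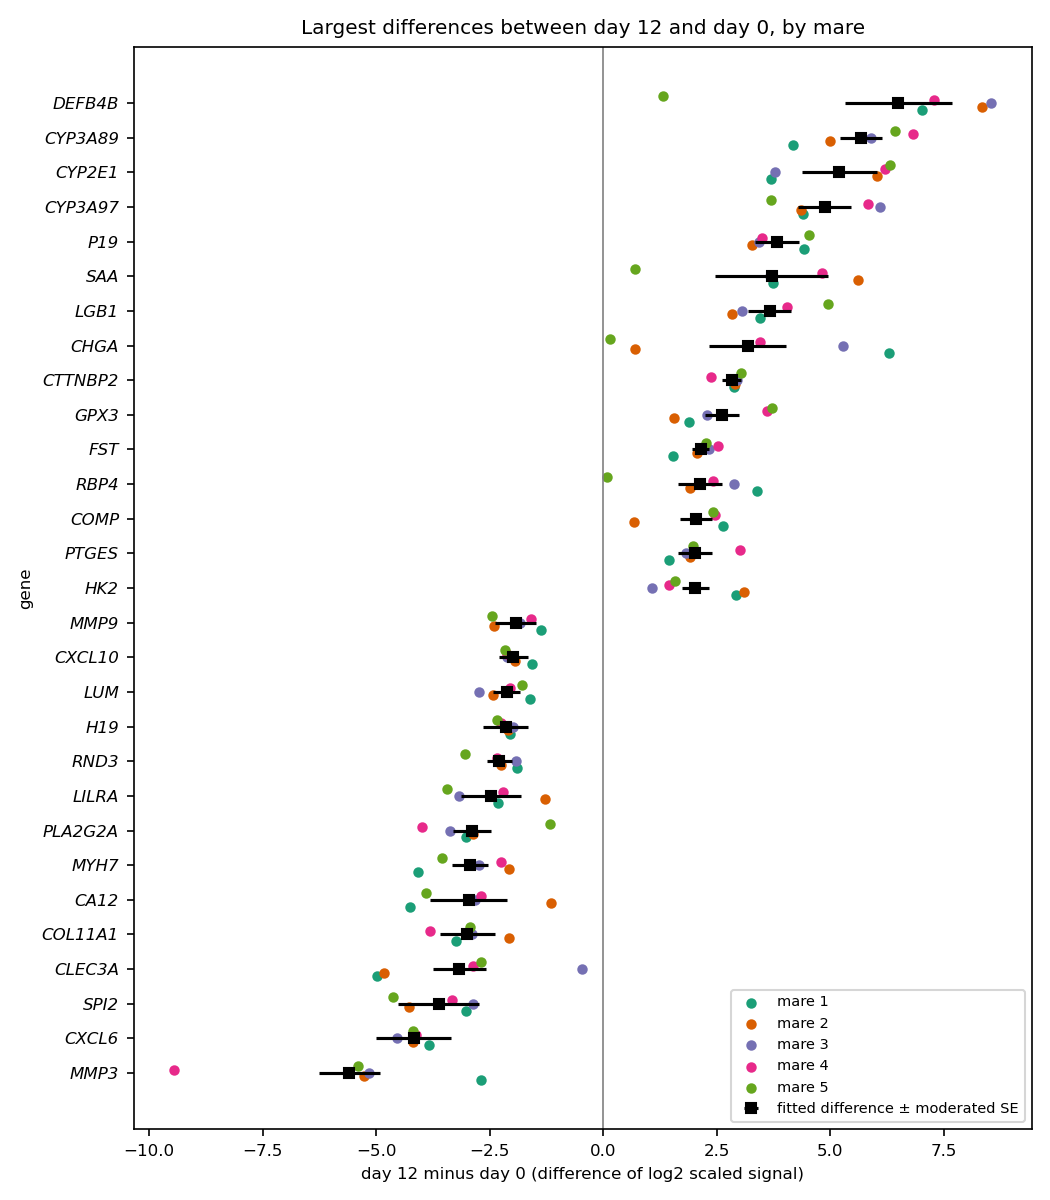
Difference between day 12 and day 0 (log2 scaled signal, horizontal axis) for the 15 largest rises and 14 of the 15 largest falls among named genes that moved the same way in all 5 mares. Coloured points are the 5 mares and black squares are the fitted difference with its SE. The fitted values run from 6.50 for DEFB4B down to −5.60 for MMP3, and mare 5 lies close to 0 for CHGA and RBP4.

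Oestrogen receptor alpha fell, and the other tested members of the hormone response list did not pass. ESR1 encodes the receptor through which oestradiol induces proliferation of the endometrium. Its level in mares 1 to 5 was 7.02, 7.47, 7.0, 6.86 and 7.25 at day 0 and 5.22, 5.48, 5.07, 5.40 and 5.78 at day 12. The lowest day 0 value lay above the highest day 12 value. The difference was −1.73 ± 0.26 (3.32-fold lower, adjusted p = 0.00012), and −1.05 after quantile normalization, where it still passed. The 5 other ESR1 probes had differences of −1.03 to −0.95, of which none passed (lowest adjusted p = 0.102). PGRMC1, a membrane-associated progesterone-binding protein, was higher in 5 of 5 mares with a difference of 0.43 ± 0.20 that did not pass (adjusted p = 0.134), and it passed after quantile normalization, at 0.77. IGF1, an oestrogen-responsive growth factor, differed by 0.43 ± 0.40 (adjusted p = 0.478), was higher in 3 mares and lower in 2, and was −0.06 with the slide in place of the mare and −0.36 with both. Thus 0 of the 3 tested members passed upward in limma, 1 of them with an unadjusted p under 0.05, and 1 passed downward.

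The list of progesterone response genes held some of the largest rises. Of 7 tested members of that list 4 passed upward and 1 downward, and the median difference was 2.15 against 0.03 over all probes. The shares among all named genes were 11.9% higher and 18.5% lower. This list was written with earlier results of these data known, so its count and median are not independent of them. P19 encodes uterocalin, the lipocalin that the equine endometrium secretes towards the conceptus. Its level in mares 1 to 5 was 2.69, 4.33, 3.90, 4.05 and 3.31 at day 0 and 7.11, 7.60, 7.34, 7.55 and 7.84 at day 12. All 5 mares were high at day 12 and spread over less than 1 log2 unit there. P19 rose by 3.83 ± 0.48 (14.3-fold, adjusted p = 1.90e-05). FST, the activin-binding protein follistatin, stood at 0.49, 0.90, 0.62, 0.44 and 0.71 at day 0 and at 2.03, 2.97, 2.94, 2.98 and 2.96 at day 12. Mare 1 was the lowest at day 12 and still above every day 0 value. The rise of FST was 2.15 ± 0.19 (4.43-fold, adjusted p = 3.52e-07).

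The same list held the fall of MAOA, the monoamine oxidase A, by 1.20 (adjusted p = 0.000448). HSD11B2, which inactivates cortisol, had a difference of −0.99 (adjusted p = 0.099), and S100G, a calcium-binding protein of uterine glands, one of −0.84 (adjusted p = 0.214).

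The remaining rises of the progesterone list were cytochromes P450, and they recurred in the list of steroid, sterol and P450 genes. There 4 of 15 tested members rose, 0 fell (2 at an unadjusted limma p under 0.05) and 11 did not pass. The median was 0.15. Among all named genes 11.9% rose and 18.5% fell. In this list 2 fell after quantile normalization or under normexp, and 1 with mare and slide. CYP3A89 belongs to the family that hydroxylates steroids and drugs. Its values were −6.33, −6.10, −6.29, −6.73 and −6.05 at day 0 and −2.14, −1.10, −0.38, 0.10 and 0.38 at day 12. No day 12 value came near the day 0 values, and the rise was 5.67 ± 0.46 (50.9-fold, adjusted p = 1.93e-07). Its other probe rose by 6.03. CYP3A97, of the same family, rose by 4.88 ± 0.58 (adjusted p = 1.09e-05) from a level that was well above background on 1 of 5 day 0 arrays. These genes have close paralogues, and cross-hybridization was not tested, so that the rises cannot be assigned to single CYP3A genes.

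CYP2E1, a P450 that oxidises ethanol and other small molecules, had −5.75, −5.11, −5.00, −5.10 and −7.23 at day 0 and −2.05, 0.93, −1.23, 1.11 and −0.92 at day 12. All mares rose, with a difference of 5.21 ± 0.82 (36.9-fold, adjusted p = 0.000163), and its 4 other probes were called in the same direction. POR, the reductase that passes electrons to microsomal P450 enzymes, rose by 1.74 ± 0.32 (adjusted p = 0.000698), from 0.20 to 0.74 at day 0 to 1.45 to 3.74 at day 12. The genes of steroid synthesis itself did not pass. HSD3B2, which makes progesterone from pregnenolone, differed by 1.15 (adjusted p = 0.0969), aromatase (CYP19A1) by 0.37 (adjusted p = 0.628), CYP11A1 by 0.08 (adjusted p = 0.914) and STAR by 0.44 (adjusted p = 0.31). These dim P450 probes were compressed by the normexp correction, to 3.46 for CYP3A89, 3.45 for CYP2E1 and 1.19 for CYP3A97, and all 3 still passed.

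**Figure D2:**
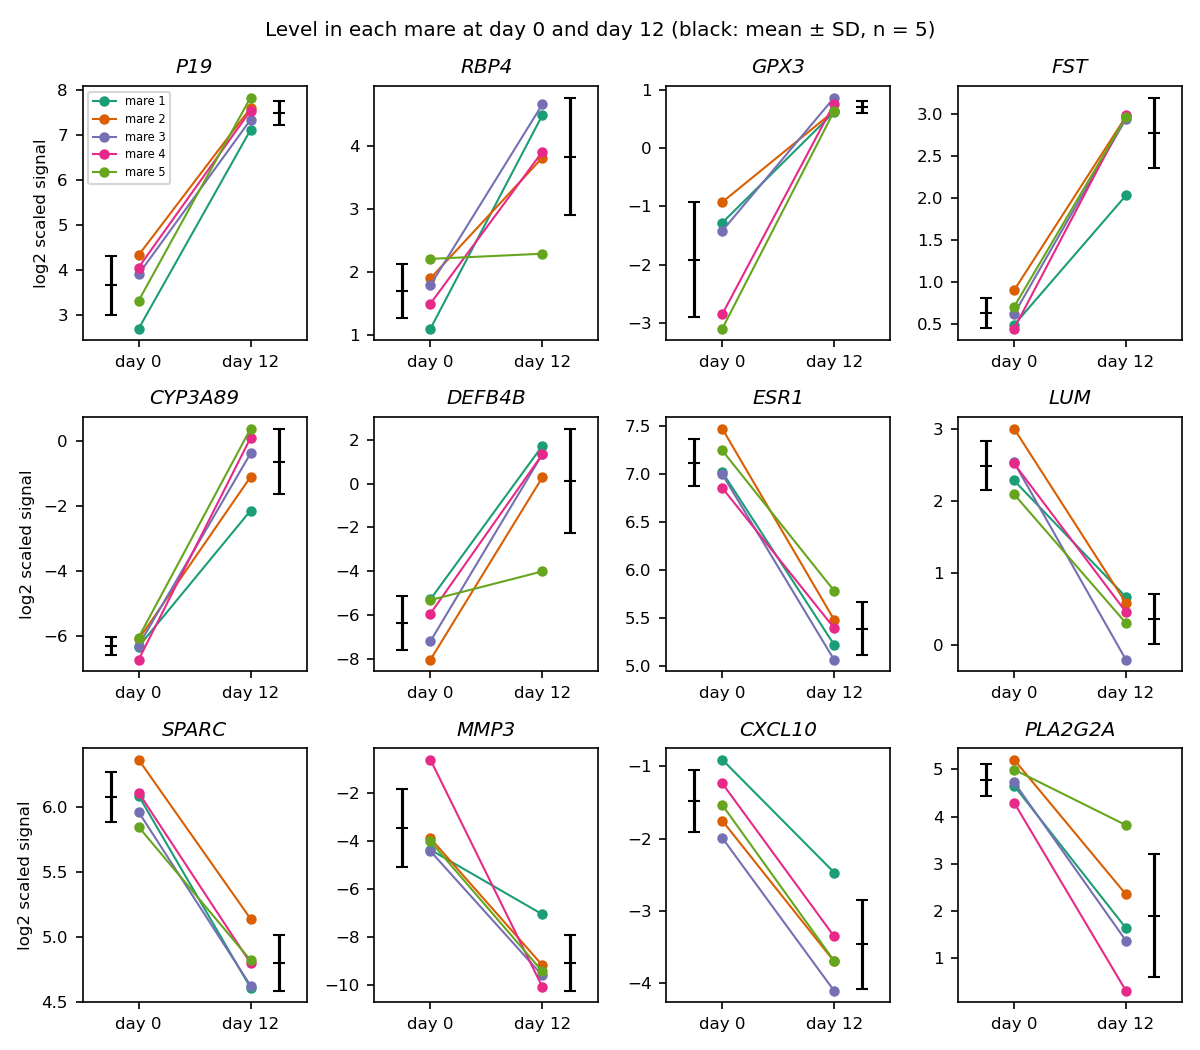
Level of 12 genes (log2 scaled signal, vertical axis) at day 0 and day 12, with 1 coloured line per mare and black bars for the mean ± SD of the 5 mares. P19 rises to between 7.11 and 7.84 in all mares, while mare 5 stays at 2.29 for RBP4 and at −4.01 for DEFB4B.

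Of 13 tested secreted uterine proteins 6 rose, 1 fell and 6 did not pass, with a median of 0.47. For comparison, 11.9% of all named genes rose and 18.5% fell. Under normexp 4 rose and 2 fell, and with the brightness covariate 5 rose and 2 fell. Besides P19, the rises were those of RBP4, GPX3, SAA, LGB1 and GM2A. RBP4 carries retinol and is a product of uterine glands. It stood at 1.09, 1.89, 1.79, 1.49 and 2.21 at day 0 and at 4.49, 3.81, 4.66, 3.91 and 2.29 at day 12. In 4 mares it was clearly higher at day 12, whereas in mare 5 both days were nearly level. The fitted rise was 2.14 ± 0.48 (4.40-fold, adjusted p = 0.00337), and its 3 other probes were called in the same direction.

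GPX3 encodes the secreted glutathione peroxidase. Its values were −1.28, −0.93, −1.42, −2.85 and −3.10 at day 0 and 0.62, 0.63, 0.86, 0.76 and 0.63 at day 12. The mares were far apart at day 0 and nearly level at day 12. GPX3 rose by 2.61 ± 0.37 (6.12-fold, adjusted p = 5.40e-05), as did its 5 other probes.

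LGB1 encodes a beta-lactoglobulin, a lipocalin of milk and of the uterus with close paralogues. It was not well above background on any day 0 array and was so on all 5 day 12 arrays, where it ran from −5.79 to −3.61. It was at least 3.47-fold higher at day 12. This bound sets the day 12 mean against, for each day 0 array, the higher of the probe's own signal and the lowest signal among probes well above background. The fitted difference was 3.67 ± 0.48 (adjusted p = 2.70e-05), and under normexp, where its signal is close to the offset, it was 0.16 and did not pass. GM2A, a lysosomal lipid-binding protein, rose by 1.35 (adjusted p = 0.00123), and clusterin (CLU) fell by 0.77 (adjusted p = 0.0162). CLU did not pass without mare 1 (−0.62), 2 (−0.66), 3 (−0.79) or 5 (−0.73), and was at −0.21 after quantile normalization. Members that did not pass included B2M at −0.36 (adjusted p = 0.162), TIMP1 at −0.53 (adjusted p = 0.246) and IL1RN at 0.47 (adjusted p = 0.782).

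In the retinoid list, which held RBP4 and one other tested gene, RARB fell. RARB is a retinoic acid receptor that is itself induced by retinoic acid. It went from between −2.11 and −0.92 at day 0 to between −2.58 and −2.23 at day 12, and fell by 0.92 ± 0.23 (adjusted p = 0.00737). Without mare 5 the difference was −0.77 and did not pass.

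Of 10 tested members of the prostaglandin and oxytocin list 2 rose, 3 fell and 5 did not pass, with a median of −0.08. These counts stood beside 11.9% higher and 18.5% lower among all named genes. With mare and slide in the model 2 rose and 1 fell. Arachidonic acid is released from membrane lipids by phospholipases A2, and both phospholipases on the list were lower at day 12. PLA2G2A, a secreted phospholipase that also kills bacteria, stood at 4.66, 5.21, 4.73, 4.30 and 5.00 at day 0 and at 1.63, 2.35, 1.36, 0.30 and 3.82 at day 12. Every day 12 value lay below every day 0 value, with mare 5 nearest to its day 0 level. PLA2G2A fell by 2.89 ± 0.42 (7.40-fold, adjusted p = 8.62e-05), as did its 4 other probes.

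PLA2G4A, the cytosolic phospholipase, had 0.35, 0.27, 0.38, −0.45 and 0.00 at day 0 and −0.40, −1.77, −1.64, −1.58 and −1.71 at day 12. Mare 1 at day 12 overlapped with mare 4 at day 0, and all 5 mares were lower. PLA2G4A fell by 1.53 ± 0.29 (adjusted p = 0.000832).

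PTGS2, the inducible cyclooxygenase, differed by 0.33 and did not pass (adjusted p = 0.656). PTGES, the terminal synthase of prostaglandin E2, went from 0.76, 0.64, 0.46, −0.65 and 0.41 to 2.21, 2.56, 2.27, 2.36 and 2.39. Its day 12 values lay close together and above all day 0 values. PTGES rose by 2.03 ± 0.37 (4.09-fold, adjusted p = 0.000641), and its 4 other probes rose too. PTGER2, a receptor of prostaglandin E2, rose by 1.85 ± 0.37 (adjusted p = 0.00126), from between −0.05 and 0.76 to between 2.16 and 2.79, with 5 other probes called alike. HPGD, which degrades prostaglandins, fell by 1.37 (adjusted p = 0.00289). The receptor of prostaglandin F2 alpha, PTGFR, differed by −0.18 (adjusted p = 0.77), and the synthase PGFS by 0.74 (adjusted p = 0.116).

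Under quantile normalization, normexp, the brightness covariate and the slide term, the medians of most lists kept their sign. Exceptions were the uterine secretory list (−0.35 with brightness), the prostaglandin list (0.20 with brightness), the P450 list (−0.28 with normexp) and the cytoskeletal list (0.08 with quantile normalization). The antimicrobial list was at −0.13 and the hormone response list at −0.36 with the slide. The median of the iron list was −0.28 with brightness and −0.19 with normexp, and that of the stress list −0.11 and −0.0059.

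**Figure D3:**
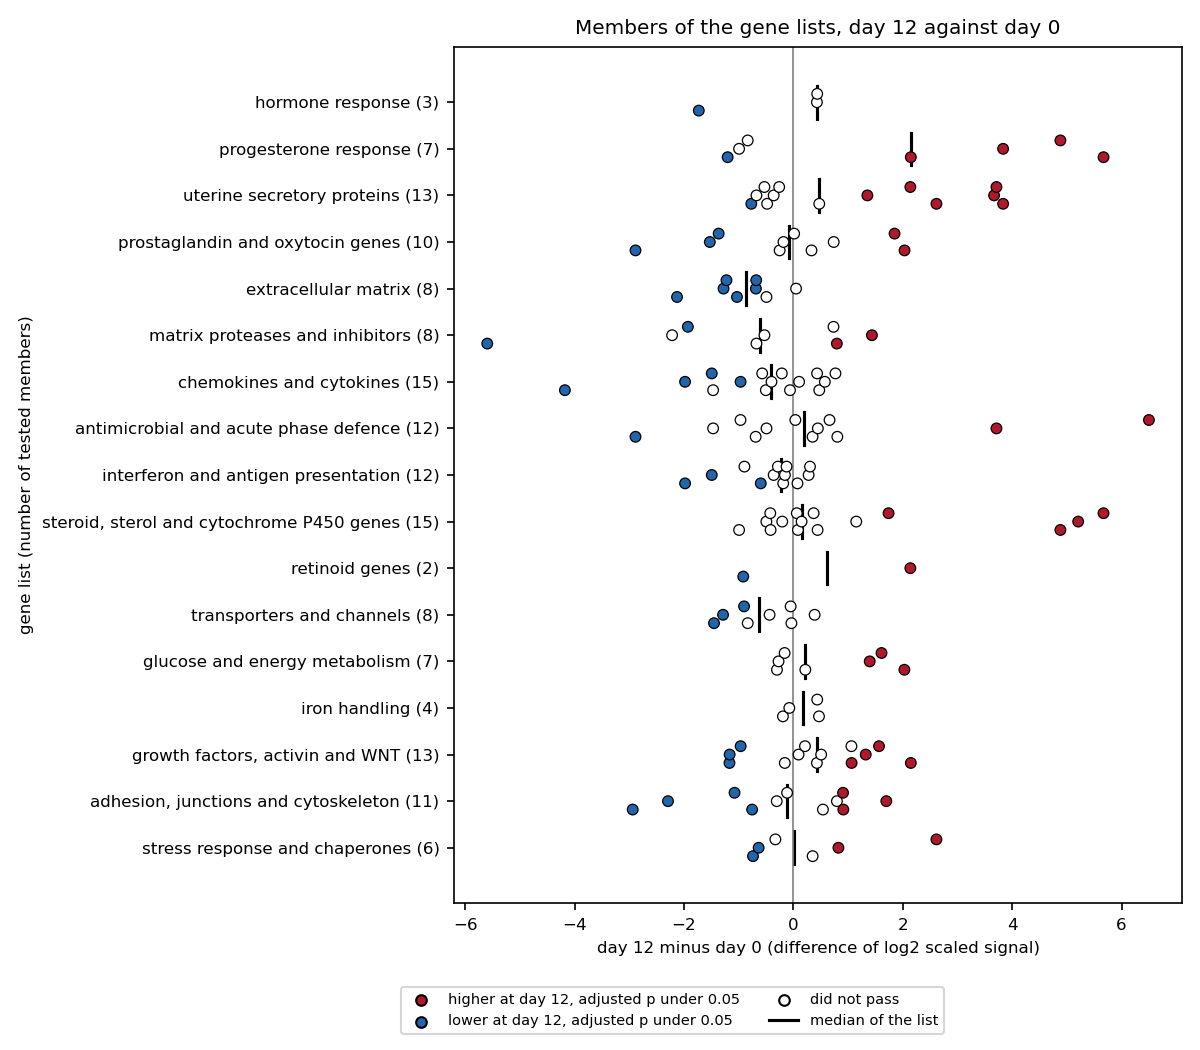
Members of 17 gene lists, with the difference between day 12 and day 0 (log2 scaled signal) on the horizontal axis and 1 point per tested gene. Red and blue points passed upward and downward, white points did not pass and bars are medians, from 2.15 for the progesterone list to −0.86 for extracellular matrix.

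Of 8 tested extracellular matrix genes 6 fell, 0 rose (also 0 at an unadjusted limma p under 0.05) and 2 did not pass, and with mare and slide in the model 3 fell. Their median was −0.86 against 0.03 over all probes, of which 10.6% passed downward, as did 18.5% of all named genes. Matrix genes outside this list also differed, with COMP at 2.05 and COL11A1 at −2.99. Lumican (LUM), a proteoglycan that orders collagen fibrils, was at 2.29, 3.01, 2.54, 2.52 and 2.10 at day 0 and at 0.67, 0.59, −0.20, 0.46 and 0.31 at day 12. The groups were separate by more than 1 log2 unit. LUM fell by 2.13 ± 0.30 (4.37-fold, adjusted p = 6.63e-05), as did its 5 other probes. SPARC, a matricellular collagen-binding protein, had 6.09, 6.37, 5.97, 6.11 and 5.85 at day 0 and 4.61, 5.14, 4.63, 4.80 and 4.82 at day 12. It fell in every mare, by 1.28 ± 0.15 (adjusted p = 1.35e-05). Its 7 other probes had the same sign and 2 of them passed.

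Biglycan (BGN) fell by 1.22 ± 0.23 (adjusted p = 0.000702) and decorin (DCN) by 1.03 ± 0.23 (adjusted p = 0.00279), and for both genes, small proteoglycans of the stroma, the 2 days did not overlap. COL5A2, a chain of the fibrillar collagen type V, fell by 0.69 (adjusted p = 0.0104) and fibromodulin (FMOD) by 0.68 (adjusted p = 0.00366). HAS2, which makes hyaluronan, differed by 0.05 (adjusted p = 0.953) and COL2A1 by −0.49 (adjusted p = 0.444). With mare and slide in the model 3 of the 8 passed, all downward, and the median was −1.02. COL5A2 did not pass without mare 1 (−0.66) or mare 5 (−0.56).

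DCN and LUM are also the only tested members of the 10 stromal fibroblast markers. The sum of their scaled signals ran from 29.8 to 44.7 at day 0 and from 12.6 to 20.0 at day 12, without overlap. In such bulk biopsies fewer cells of a type and less RNA per cell cannot be told apart. The epithelial marker ESRP1, at 5.85 to 12.6 against 8.39 to 11.0, differed by 0.02 on the log2 scale (adjusted p = 0.945). The endothelial marker PECAM1, at 1.06 to 1.94 against 1.42 to 2.14, differed by 0.44 (adjusted p = 0.104). The smooth muscle marker TAGLN, at 0.271 to 0.478 against 0.193 to 0.319, differed by −0.30 (adjusted p = 0.567). The red cell marker HBA2, at 0.174 to 0.281 against 0.134 to 0.235, also differed by −0.30 (adjusted p = 0.393), and the ciliated cell marker DYDC1 by −0.26 (adjusted p = 0.637). The part that tissue composition had in the fall of the matrix genes was not tested.

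Among matrix-degrading enzymes MMP3 and MMP9 fell. MMP3 is stromelysin 1, which cleaves proteoglycans and activates other metalloproteinases. It stood at −4.37, −3.89, −4.43, −0.62 and −4.02 at day 0 and at −7.05, −9.17, −9.59, −10.07 and −9.43 at day 12. Mare 4 was far above the others at day 0, and at day 12 only 1 of 5 arrays was well above background. MMP3 fell by 5.60 ± 0.67 (48.4-fold, adjusted p = 1.23e-05), and its difference was −2.19 under normexp. MMP9, a gelatinase, went from −3.37, −2.21, −2.59, −4.16 and −1.81 to −4.75, −4.61, −4.42, −5.75 and −4.27. Every mare was lower at day 12, by 1.93 ± 0.45 (3.81-fold, adjusted p = 0.00449).

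The list of proteases and their inhibitors as a whole held 2 rises, 2 falls and 4 genes that did not pass among 8 tested, with a median of −0.60. Among all named genes 11.9% rose and 18.5% fell. In this list the rises and falls were 1 and 4 under normexp, 1 and 3 with the brightness covariate and 0 and 1 with mare and slide. MMP26, a small metalloproteinase of the endometrium, rose by 1.44 ± 0.33 (adjusted p = 0.00394) in 4 of 5 mares. In mare 4 it was 5.84 at day 0 and 5.82 at day 12. TIMP3, a matrix-bound metalloproteinase inhibitor, passed at 0.79 ± 0.26 (adjusted p = 0.0327), but in 13 of 19 alternatives it did not, including every one that left out a mare (0.68 to 0.86). MMP13, a collagenase, differed by −2.22 and did not pass (adjusted p = 0.0941).

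Of 15 tested chemokine and cytokine genes 4 fell, 0 rose (1 at an unadjusted limma p under 0.05) and 11 did not pass, with a median of −0.40. This count of falls stood beside 18.5% among all named genes, and it was 5 after quantile normalization and 6 under normexp. CXCL6, which attracts neutrophils, stood at −2.50, −2.83, −2.64, −4.05 and −3.52 at day 0 and at −6.34, −7.01, −7.17, −8.18 and −7.71 at day 12. It was well above background on all day 0 arrays and on 2 of 5 at day 12, and it fell by 4.18 ± 0.82 (18.1-fold, adjusted p = 0.00113). CXCL10, an interferon-induced attractant of T cells, went from −0.90, −1.75, −1.99, −1.23 and −1.53 to −2.47, −3.70, −4.10, −3.35 and −3.69. All day 12 values were below all day 0 values. CXCL10 fell by 1.98 ± 0.31 (3.95-fold, adjusted p = 0.00017), as did its 4 other probes.

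CXCL9, of the same interferon-induced group, fell by 1.49 ± 0.37 (adjusted p = 0.00632), and its other probe had −1.53 without passing (adjusted p = 0.064). IL18, a cytokine that induces interferon gamma, fell by 0.97 ± 0.30 (adjusted p = 0.026), and in 10 of 19 alternatives it did not pass, among them those without mare 1, 2, 3 or 5 (−0.97 to −0.84). CCL2, CCL5, TNF and IFNG lay between −0.57 and −0.06 and did not pass.

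In the interferon and antigen presentation list 3 of 12 tested members fell, which were CXCL9, CXCL10 and TLR3, with a median of −0.24. The share was near the 18.5% that fell among all named genes, and the count was 4 after quantile normalization or under normexp and 2 with the brightness covariate or the slide. TLR3, an intracellular sensor of double-stranded RNA, fell by 0.60 ± 0.21 (adjusted p = 0.0484). It did not pass in 13 of 19 alternatives, among them those without mare 1 (−0.44), mare 2 (−0.60) or mare 5 (−0.53). Interferon-stimulated genes such as MX1 at 0.28 (adjusted p = 0.56) and OAS1 at −0.16 (adjusted p = 0.746) did not pass.

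Of 12 tested antimicrobial and acute phase genes 2 rose, 1 fell (PLA2G2A) and 9 did not pass, with a median of 0.19, beside 11.9% higher and 18.5% lower among all named genes. The balance of rises and falls changed with the scaling, to 2 and 3 after quantile normalization, 1 and 3 under normexp, and 1 and 2 with the brightness covariate or the slide. DEFB4B encodes a beta-defensin, a short antimicrobial peptide of epithelia. Its values were −5.29, −8.05, −7.21, −5.95 and −5.32 at day 0 and 1.73, 0.28, 1.34, 1.34 and −4.01 at day 12. In 4 mares it was above 0 at day 12, whereas mare 5 stayed low, though above all day 0 values. The rise was 6.50 ± 1.18 (90.4-fold, adjusted p = 0.000574), and 4.05 under normexp. Its other probe rose by 6.21 and was well above background on 2 day 0 arrays. At day 0 mares 2 and 3 lay below the lowest signal well above background of their arrays (−5.79 and −6.82). The size of the rise thus rests in part on day 0 signal at background.

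SAA, serum amyloid A of the acute phase response, had −7.28, −5.34, −5.64, −6.21 and −0.37 at day 0 and −3.54, 0.28, −1.97, −1.39 and 0.33 at day 12. Mare 5 was high on both days, and the groups overlapped. The difference of 3.71 ± 1.24 passed narrowly (adjusted p = 0.0376). It did not pass in 10 of 19 alternatives, among them those without mare 1 (3.71), 2 (3.23), 3 (3.72) or 4 (3.43). TLR2 at 0.04 and TLR4 at 0.66 did not pass, nor did the cathelicidins ECATH-2 at 0.35 and ECATH-3 at −0.69.

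Markers of immune cells other than these gave few calls. Of 5 tested T and NK cell markers (of 20 listed), GZMB rose, by 1.08 ± 0.24 (adjusted p = 0.00323), and CD2, GNLY, KLRB1 and CCL5 lay between −0.49 and 0.02 without passing. GZMB encodes granzyme B of cytotoxic lymphocytes, and it stood at 2.35, 2.81, 2.40, 0.83 and 3.12 at day 0 and at 2.96, 3.82, 3.09, 2.19 and 4.87 at day 12. The groups overlapped although every mare was higher at day 12, and without the mare in the model it did not pass. The sum over the 5 genes ran from 3.09 to 11.9 at day 0 and from 6.32 to 30.9 at day 12. These are sums of unlogged signals, and the highest at day 12 was mostly GZMB, the only one of the 5 that passed.

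TPSB2, a tryptase of mast cells, rose by 2.02 ± 0.34 (4.05-fold, adjusted p = 0.000267), in 5 of 5 mares with overlapping groups, and also lost its call without the mare term. FCER1A, the mast cell IgE receptor chain, differed by 0.42 (adjusted p = 0.253), and the sum of both ran from 0.183 to 1.27 and from 0.478 to 3.93. The macrophage markers CD14 at 0.45 (adjusted p = 0.301) and CD68 at −0.73 (adjusted p = 0.063) did not pass, with sums of 1.08 to 2.11 and 1.76 to 3.05. No tested probe represented the B cell list.

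Growth factor genes were divided, with 4 rises, 3 falls and 6 genes that did not pass among 13 tested (median 0.43). Over all named genes the shares were 11.9% higher and 18.5% lower. The rises and falls were 2 and 3 under normexp, 3 and 2 with the brightness covariate and 1 and 1 with mare and slide. Apart from FST, INHA encodes the alpha subunit of inhibin, which like follistatin opposes activin. It rose by 1.32 ± 0.27 (adjusted p = 0.00141) in 5 of 5 mares from a dim level, with overlapping groups, and by 0.11 under normexp, where it did not pass. INHBA, a subunit of activin, differed by 1.06 (adjusted p = 0.138). VEGFA, which drives growth of vessels, went from between −6.21 and −5.05 to between −4.40 and −3.21. It rose by 1.56 ± 0.32 (adjusted p = 0.00174), as did its 9 other probes, but by 0.31 under normexp and by 0.86 with the brightness covariate, the former without passing. TGFB1, a growth factor of tissue remodelling, rose by 1.06 (adjusted p = 0.00743) and did not pass without mare 2 (1.02).

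Genes of WNT signalling that passed were lower. FRZB, a secreted WNT antagonist, fell by 1.17 ± 0.22 (adjusted p = 0.000768), from between −1.48 and −0.38 to between −2.47 and −1.99. RSPO3, which strengthens WNT signalling, fell by 1.17 (adjusted p = 0.0186), and the ligand WNT2 by 0.96 (adjusted p = 0.0487). RSPO3 did not pass without mare 3 (−1.18) or 5 (−0.94), nor WNT2 without mare 2 (−1.08), 3 (−0.84), 4 (−0.91) or 5 (−0.82). CTNNB1, beta-catenin, differed by 0.09 (adjusted p = 0.825).

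Listed metabolic genes that passed were higher, and listed transporters that passed were lower. Of 7 tested genes of glucose and energy metabolism 3 rose and 0 fell, also at an unadjusted limma p under 0.05 (median 0.22). With mare and slide 1 rose. The share that rose among all named genes was 11.9%. HK2, the hexokinase that traps glucose in the cell, had −4.58, −5.37, −3.99, −4.50 and −4.25 at day 0 and −1.64, −2.26, −2.92, −3.05 and −2.68 at day 12. All mares rose without overlap, by 2.03 ± 0.30 (4.08-fold, adjusted p = 9.92e-05). PLIN2, which coats lipid droplets, rose by 1.61 ± 0.20 (adjusted p = 1.73e-05), from between 2.59 and 3.20 to between 4.26 and 5.10. CPT1A, which takes fatty acids into mitochondria, rose by 1.39 ± 0.27 (adjusted p = 0.000994). The lactate dehydrogenases LDHA at −0.30 and LDHB at 0.22 did not pass.

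Of 8 tested transporters and channels 0 rose, also at an unadjusted limma p under 0.05, and 3 fell, with a median of −0.64. With the brightness covariate 1 fell, and with mare and slide 0. The share that fell among all named genes was 18.5%. The metal transporter SLC11A1, which was on neither this list nor the iron list, rose by 1.42. SLC2A5, a fructose transporter, stood at −2.91, −2.27, −2.20, −2.39 and −2.15 at day 0 and at −4.49, −3.20, −5.13, −3.05 and −3.30 at day 12. Mares 1 and 3 were the lowest at day 12, and SLC2A5 fell by 1.45 ± 0.38 (adjusted p = 0.010). Without mare 3 it was −1.08 and did not pass. CFTR, the chloride channel of epithelia, fell by 1.29 ± 0.34 (adjusted p = 0.0102) with overlapping groups, did not pass without mare 2 (−1.22), and had another probe at −0.59 that did not pass. SLC16A1, a lactate transporter, fell by 0.90 ± 0.26 (adjusted p = 0.0151). It did not pass without mare 5 (−0.94), and its other probe was at −0.18. The glucose transporters SLC2A4 and SLC5A1 were at −0.04 and −0.05. None of the 4 tested iron genes passed in limma, and 0 had an unadjusted p under 0.05: TFRC at 0.47, TF at −0.19, FTL at −0.08 and IREB2 at 0.44.

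Cytoskeletal and adhesion genes held 3 rises, 4 falls and 4 genes that did not pass among 11 tested (median −0.12). Of all named genes 11.9% rose and 18.5% fell. Gelsolin (GSN), which severs actin filaments, was at 3.75, 2.96, 2.93, 2.50 and 2.84 at day 0 and at 4.95, 4.76, 4.58, 4.81 and 4.39 at day 12. The groups were separate, and GSN rose by 1.70 ± 0.23 (3.25-fold, adjusted p = 3.16e-05). MYH7, a myosin heavy chain best known from slow muscle, had 2.20, 1.73, 1.39, 1.30 and 2.93 at day 0 and −1.88, −0.34, −1.35, −0.95 and −0.61 at day 12. Each mare crossed from above 0 to below 0. MYH7 fell by 2.94 ± 0.39 (7.66-fold, adjusted p = 3.48e-05), as did its 2 other probes.

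RND3, a small GTPase that loosens actin stress fibres, fell by 2.29 ± 0.28 (adjusted p = 1.23e-05), from between 1.38 and 2.33 to between −1.14 and −0.01. CD44, the hyaluronan receptor, fell by 1.08 ± 0.23 (adjusted p = 0.00213) and CADM1 by 0.75 (adjusted p = 0.0289). The endothelial adhesion molecule VCAM1 rose by 0.91 (adjusted p = 0.0012), as did the gap junction protein GJB1, also by 0.91 (adjusted p = 0.0211). CADM1 did not pass without mare 1, 2, 3 or 5 (−0.82 to −0.65), nor GJB1 without mare 1, 2 or 5 (0.77 to 0.81).

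Stress genes and chaperones went both ways, 2 up and 2 down of 6 tested (median 0.01), beside 11.9% up and 18.5% down among all named genes. Besides GPX3, the superoxide dismutase SOD1 rose by 0.82 ± 0.18 (adjusted p = 0.00272). The chaperone HSP90AB1 fell by 0.74 ± 0.17 (adjusted p = 0.00388), but was at −0.09 after quantile normalization and at −0.49 with the brightness covariate and passed in neither. Thioredoxin (TXN) fell by 0.64 ± 0.16 (adjusted p = 0.00613), and did not pass without mare 5 (−0.55).

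Genes on none of these lists also differed. CTTNBP2, a cortactin-binding protein, stood at 0.16, 0.26, 0.41, 0.48 and 0.08 at day 0 and at 3.05, 3.16, 3.36, 2.85 and 3.10 at day 12. The mares lay close together on both days, and the rise was 2.83 ± 0.21 (7.11-fold, adjusted p = 7.39e-08). COMP, a cartilage matrix protein, rose by 2.05 ± 0.35 (adjusted p = 0.000359). CHGA, chromogranin A of secretory granules, went from −5.89, −3.46, −3.92, −5.33 and −4.89 to 0.40, −2.76, 1.37, −1.88 and −4.73. Mares 1, 3 and 4 rose by several log2 units, and mares 2 and 5 by less than 1. The difference of 3.18 ± 0.86 passed (adjusted p = 0.0111), but not in 6 of 19 alternatives, among them that without mare 3 (2.65). On the slide that held day 12 of mare 5 it was −1.04.

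Among the falls, SPI2, a serine protease inhibitor, fell by 3.63 ± 0.88 (adjusted p = 0.00586), from between −1.07 and −0.44 to between −5.08 and −3.76. CLEC3A, a C-type lectin, fell by 3.17 ± 0.59 (adjusted p = 0.000687) and was well above background on 1 of 5 day 12 arrays. COL11A1, a fibrillar collagen chain, fell by 2.99 ± 0.60 (adjusted p = 0.00134), while its other probe, at −0.74, did not pass.

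CA12, a membrane carbonic anhydrase, was not well above background on any day 12 array and was so on 2 of 5 at day 0. The bound described for LGB1, with day 12 as the dim day, gave 2.02-fold lower. It takes the day 0 mean as measured, in part from signal at background, and so is not a firm minimum. CA12 had a fitted difference of −2.96 ± 0.84 (adjusted p = 0.0156), and did not pass after quantile normalization (−2.51). Its 4 other probes were called in the same direction. LILRA, a leukocyte immunoglobulin-like receptor, fell by 2.48 ± 0.66 (adjusted p = 0.0101), and did not pass without mare 3 (−2.31) or mare 5 (−2.24). H19, an imprinted long non-coding RNA, fell by 2.15 ± 0.50 (adjusted p = 0.00416), with its other probe at −0.25 and not called.

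Some differences fell on probes without a symbol. An expressed sequence tag rose by 8.51 ± 0.66 (adjusted p = 1.18e-07). It was well above background on only 2 of 5 day 0 arrays, so the size of its rise rests in part on signal at background. The transcript ENSECAT00000016458 was not well above background on any day 0 array and ran from −0.32 to 0.61 at day 12, at least 118-fold higher. The fitted difference of another expressed sequence tag was −7.30 ± 0.89 (adjusted p = 1.35e-05), with no day 12 array well above background and thus at least 50.6-fold lower. The transcript ENSECAT00000017634 fell by 6.19 ± 1.0 (adjusted p = 0.000197).

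Day 12 was also set against day 8, the mid luteal phase. In this comparison the day 0 level cancels, so that it also tests whether the change from day 0 was larger at day 12. In the same limma fit 855 probes (2.39%) were called, 470 higher (1.31%) and 385 lower (1.08%), and 23 of 513 named genes (4.48%). The number was 0 without mare 3, where 4721 probes had an unadjusted limma p under 0.05, and 3 without mare 2. It was between 223 and 279 without mare 1, 4 or 5, and 4 with the slide in the model. Of all named genes, 13 were called in both comparisons and lay further from day 0 at day 12, and 2 lay nearer. Both comparisons use the same day 12 arrays, so a deviation of those arrays moves both alike. This split was therefore favoured in advance. Of the genes named by rule that were higher at day 12 than at day 0, RBP4, CHGA, DEFB4B, GSN and GZMB were also higher than at day 8. RBP4 was 2.92 higher (adjusted p = 0.00951), with a day 8 mean of 0.91 ± 0.65 (SD, n = 5). CHGA was 5.27 higher (adjusted p = 0.00888), DEFB4B 4.88 higher (adjusted p = 0.0371), GSN 1.59 higher (adjusted p = 0.00566) and GZMB 0.94 higher (adjusted p = 0.0477). The means of RBP4 and CHGA were highest at day 16.

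On the other side PLA2G2A was lower at day 12 than at day 8 by −1.67 (adjusted p = 0.0442) and SLC2A5 by −1.83 (adjusted p = 0.0225). PGRMC1, which did not differ beyond the threshold from day 0, was lower than at day 8 by −0.86 (adjusted p = 0.0323), from a day 8 mean of 6.13 ± 0.29 (SD, n = 5). Other large differences did not pass between the 2 luteal days. P19 differed by −0.25 between them (adjusted p = 0.79), CYP3A89 by −0.39 (adjusted p = 0.653) and FST by −0.48 (adjusted p = 0.169). MMP3 differed by 0.23 (adjusted p = 0.868) and ESR1 by −0.66 (adjusted p = 0.178).

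Over the 5 days the mean of the 15 largest rises was highest at day 8 for 7 genes, at day 12 for 6 and at day 16 for 2. The 15 largest falls had their lowest mean at day 12 for 7 genes, at day 8 for 5 and at day 3 for 3. These genes were chosen by their difference between day 12 and day 0. An extreme mean at day 12 was therefore favoured by the choice itself.

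**Figure D4:**
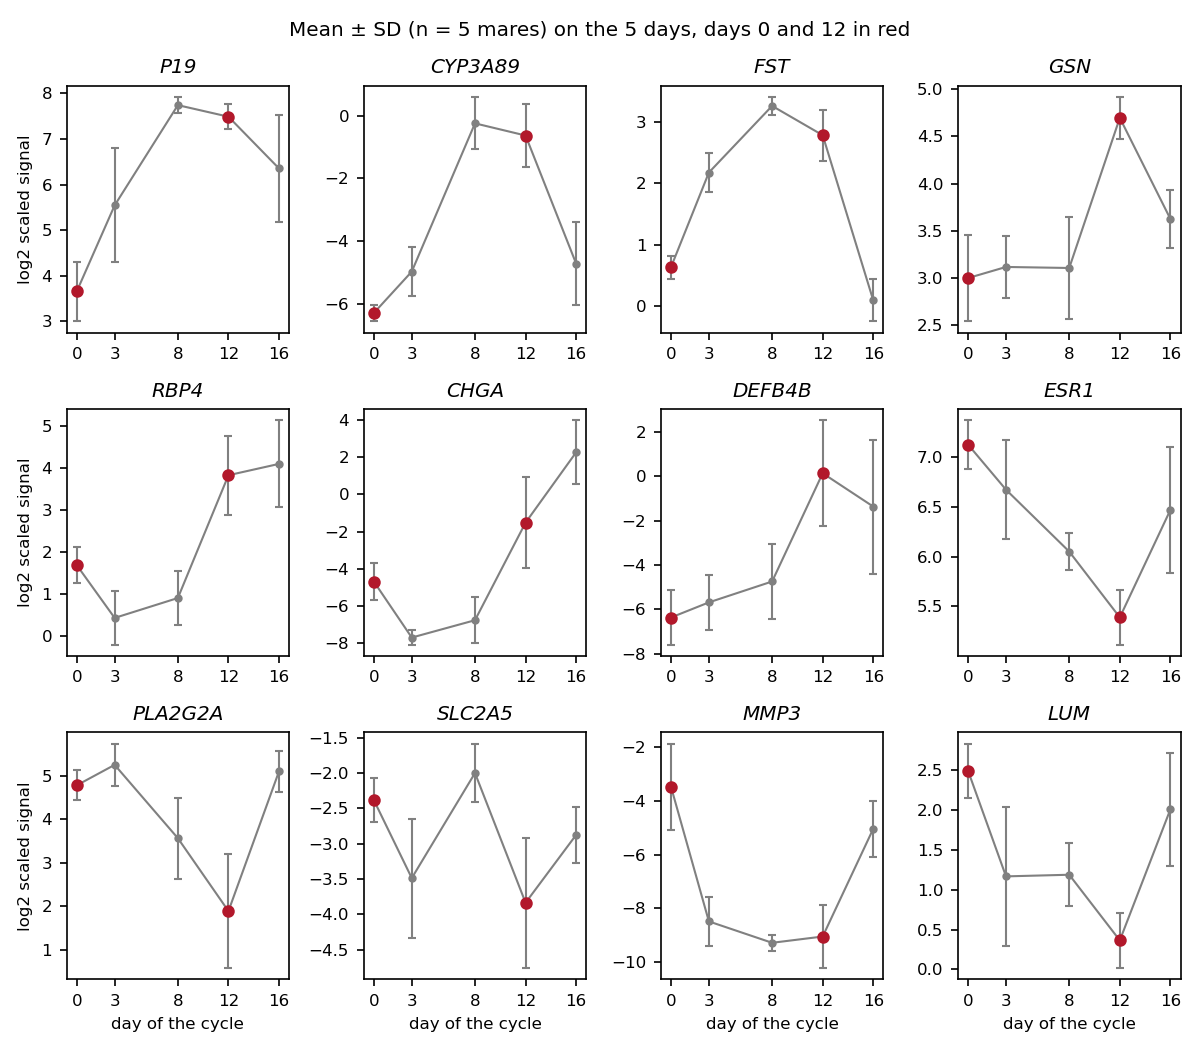
Mean level ± SD of the 5 mares (log2 scaled signal) of 12 genes on days 0, 3, 8, 12 and 16, with days 0 and 12 in red. P19, CYP3A89 and FST are already high at day 8, whereas GSN, RBP4, CHGA and DEFB4B are higher at day 12 than at day 8, by 1.59, 2.92, 5.27 and 4.88.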

How the data were processed

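RNA of 25 endometrial biopsies was hybridised to Agilent arrays in 1 colour. Processed intensities were deposited. Per the file headers, Feature Extraction 10.7.3.1 subtracted background and spatial trends within each array, and the deposited value table equalled this processed signal on all 25 arrays. From these, log2 values were taken relative to the 75th percentile of their own array, outlier spots were set to missing and spots of a probe were averaged. Tested probes had 4 or more arrays of the 5 of some day well above background. Saturation occurred on no spot. Precision is limited by the number of arrays, 5 per day.

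Day and mare were fitted over all 25 arrays with limma 3.58.1 in R 4.3.3 (16 residual degrees of freedom), with two-sided moderated tests and Benjamini-Hochberg adjustment. This shares 1 estimate of spread over the days. The mare pairs the arrays because the labels name it. Deviations from the day means correlated between day 0 and day 12 of the same mare at a median of 0.164 (0.155 to 0.343), and of different mares at −0.07. A scaling to the 75th percentile cannot show a change in total RNA.

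Of 43603 probes, 1307 of 620 genes were matched by accession to RefSeq symbols on the assembly TB-T2T, and 32565 named by Ensembl transcripts, 6468 by GenBank or EST accessions and 1724 by probe identifier were not. The brightest probe, by its mean over all arrays, stood for a gene. Named were the 15 largest rises and falls that all mares shared in direction, up to 4 passing members of each list, all hormone response genes, up to 3 called markers, and up to 2 rises and 2 falls without a symbol. Further list members are given with their values, and some genes are not reported here. Members, lists and rules were chosen with earlier results of these data known, and no list was tested as a set. Alternatives were quantile normalization, normexp with an offset of 50, other filters, other blocks, brightness as a covariate and leaving out mares; leaving out the 2 arrays that stand apart was chosen after seeing the data. The pipeline was tested on simulated data. Python 3.11.15 with pandas 2.3.3, numpy 2.4.6 and, for figures, matplotlib 3.10.9 was used besides R.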

Additional observations from a re-analysis of the deposited data

Results flagged for a closer look

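In 8 of 118 groups of 5 arrays (59 genes on 2 days) 1 array lay far from the other 4 by Dixon's criterion, which by chance marks about 1 in 20 groups. At day 12, DEFB4B was lowest in mare 5 at −4.01, against 0.28 in the next mare, and TXN was highest in mare 5 at 2.24, against 2.12. FST was lowest in mare 1 at 2.03, against 2.94, and PLA2G4A highest in mare 1 at −0.40, against −1.58. PTGER2 was highest in mare 4 at 2.79, against 2.27. At day 0, SAA was highest in mare 5 at −0.37, against −5.34 (log2 scaled signal), and MMP3 was highest in mare 4 at −0.62, against −3.89. PTGES was lowest in mare 4 at −0.65, against 0.41. The fitted differences of DEFB4B, FST, PTGES, MMP3, PTGER2 and PLA2G4A passed without each mare in turn, SAA passed only without mare 5, and TXN did not pass without mare 5.

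For 8 of these 59 genes the change from day 0 was not the same at day 12 as at day 8, by the limma test of day 12 minus day 8. Among all 513 named genes 23 were called in that test. The differences were 4.88 for DEFB4B, 5.27 for CHGA, 2.92 for RBP4, 1.59 for GSN, 0.94 for GZMB, −1.67 for PLA2G2A, −1.83 for SLC2A5 and −0.86 for PGRMC1. Over 18 alternatives they passed in 12 for DEFB4B, 15 each for CHGA, RBP4 and GSN, 13 for SLC2A5, 10 for PGRMC1, 7 for PLA2G2A and 5 for GZMB.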

How the results depend on the processing

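For the comparison day 12 minus day 0, 7806 probes were called (4012 higher, 3794 lower, 51.4% higher), among them 156 named genes. The mare was the block of this fit; with no replicate block 6398 probes and 129 named genes were called, and the call ended for SAA, TIMP3, TLR3, GZMB and TPSB2. With 1 probe per target the counts were 3945 (2148 higher, 1797 lower), with a 2-fold minimum 3752 (2191 and 1561) and 80 named genes, with array brightness as a covariate 4836 (2581 and 2255) and 99 named genes, and with mare and slide 2739 (1370 and 1369) and 65 named genes. Mare and scan day gave 2603 higher, and normexp 2582 higher and 5660 lower (31.3% higher). Leaving out each mare gave 5005 to 7632 probes (2650 to 4005 higher, 2277 to 3627 lower) and 100 to 157 named genes. Of the 58 called genes described by rule, 34 kept their call with mare and slide, 49 with brightness, 53 with normexp and with the slide alone, 51 to 56 without one mare, and 54 when day 0 of mare 2 and day 3 of mare 4 were left out. None of the 58 changed direction under any of these. IGF1, not called, reversed to −0.36 with mare and slide and to −0.059 with slide alone. For day 12 minus day 8, called for 855 probes, the counts were 404 with 1 probe per target, 519 with brightness, 476 with a 2-fold minimum, 4 with mare and slide, 509 with no filter on dim probes, 392 with no replicate block, 462 with slide, 5399 with only these 2 days fitted and 0 to 279 without one mare. A scaling shift of the median over all probes by over 0.1 arose with normexp (−0.22) and with slide, with or without mare (−0.11 each). Normexp adds a constant and so lowers the differences of dim probes. Brightness and slide are in part confounded with the day, and their part in the lost calls was not tested. Genes near background at either day are limited by signal over background.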

Other observations

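Some gene families outside the lists, grouped after their values were seen, also held several calls. The shares over all named genes were 11.9% higher and 18.5% lower. Of 4 tested ribosomal protein genes 3 fell, with RPSA at −0.88, RPLP2 at −0.85 and RPL5 at −0.61 (lower in 4 of 5 mares), and RPL15 was at 0.09 and not called. After quantile normalization none of the 3 passed, with RPSA at −0.22, RPLP2 at −0.16 and RPL5 turned to 0.11. With brightness as a covariate RPLP2 passed, at −0.78, while RPSA, at −0.56, and RPL5, at −0.21, did not. The translation elongation factor EEF1G fell by 0.80, with −0.66 after quantile normalization, where it still passed. EEF1A1 fell by 0.63 in the main scaling, at the threshold (limma adjusted p = 0.05 after rounding), and turned to 0.13 after quantile normalization. With brightness as a covariate EEF1A1 was at −0.12 and did not pass. Both endothelin receptors fell, EDNRB by 1.49 and EDNRA by 1.07, with −1.45 and −1.28 after quantile normalization, while the ligand EDN2 was at −0.77 and did not pass. With brightness as a covariate EDNRB, at −0.80, and EDNRA, at −0.72, did not pass. AKR1C1, an aldo-keto reductase, rose by 1.77, RGS2, a regulator of G protein signalling, by 1.54, and the metal transporter SLC11A1 by 1.42. With brightness as a covariate RGS2 was at 1.06 and did not pass. Once the slide joined the mare in the model, RPLP2 (−0.60), RPSA (−0.585), RPL5 (−0.46) and EEF1A1 (−0.56) did not pass. Nor did EEF1G (−1.01), EDNRA (−1.56) and RGS2 (1.88) pass there. EDNRB (−2.41), AKR1C1 (2.33) and SLC11A1 (1.57) passed in that model. Of other families so grouped, 3 of 4 tested serpins, 2 of 3 tested 14-3-3 proteins and 2 of 6 tested toll-like receptors fell. All values are log2 differences between day 12 and day 0, and the calls are those of limma.

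At day 12 mare 5 stood apart for several genes that also differed between days 12 and 8. Its day 12 array shared its slide and scan day only with the day 0 arrays of mares 2 and 3. Mare, slide and scan day therefore cannot be told apart for this array. Its RBP4 level was 2.29, against 3.81 to 4.66 in the others, its CHGA level −4.73, against −2.76 to 1.37, its DEFB4B level −4.01, against 0.28 to 1.73, and its PLA2G2A level 3.82, against 0.30 to 2.35. Its P19 level, 7.84, was the highest of the 5. Over the probes called between days 12 and 8, its median difference in the called direction was 0.78, against 0.86 to 1.32 in the other mares, and over those called between days 12 and 0 it was 1.07, against 0.90 to 1.07.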
